A study of Mus musculus with 12 samples.

Results

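The growth hormone response described here is that of mouse embryonic fibroblasts (MEFs) without functional Stat5 genes, which were read on 4 of the 12 arrays of the study. The members were chosen by their labels, as the 2 arrays of Stat5-null MEFs given growth hormone for 120 minutes (KO with hormone) and the 2 arrays of Stat5-null MEFs without it (KO without hormone). All MEFs came from the C57BL/6 strain. The 8 other arrays held MEFs with intact Stat5 genes (WT) and Stat5-null MEFs given STAT5A by a retrovirus (S5), each with and without the hormone on 2 arrays. According to the design text, the 2 arrays of each group are biological duplicates, and no label gives a vehicle for the untreated cells or an empty vector for KO cells. The Stat5-null MEFs have no second preparation among the labels, so genotype and preparation cannot be told apart.

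Growth hormone binds its receptor on the cell surface and activates the kinase JAK2, which phosphorylates STAT5A and STAT5B. These transcription factors then enter the nucleus and switch on genes such as Cish and Socs2, whose products dampen the signal. The receptor also engages SRC family kinases and the RAS-MAPK and PI3K pathways, and fibroblasts in general answer many stimuli through NF-kB, a transcription factor held in the cytoplasm by inhibitors such as the product of Nfkbia.

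Total RNA was hybridised to Affymetrix expression arrays, and the values are the deposited log2 expression values of 18194 genes, each read by the probe set that was brightest on average. The median of the KO arrays lay between 2.86 and 2.90, and 44.9 to 45.2% of their probe sets lay at 4 or more. Values below 4 form a crowded low mode of the arrays, and where both arrays of a group lay in it a fold is given only as a bound. The 2 KO arrays with hormone differed from each other with an SD of 0.38 over 10947 genes, the widest of the 6 groups, and the 2 KO arrays without hormone with an SD of 0.33, against 0.26 to 0.33 in WT and S5 groups. The Gapdh probe sets read 3′ signal above 5′ signal by 1.02 and 1.11 with hormone and by 0.94 and 1.10 without it. The 13 measured fibroblast markers averaged 13.63 and 13.65 with hormone and 13.70 and 13.67 without it. The 16 macrophage and leukocyte markers averaged 3.95 and 4.11 with hormone and 4.01 and 3.73 without it. Of these markers 9 lay below 4 on all 4 KO arrays, among them Ptprc, Spi1, Adgre1 and Itgam. The other 7 were Cd68, Csf1r, Cd14, Lyz2, Cd53, Laptm5 and Lcp1. Cd68 read 8.26 and 8.25 with hormone and 8.37 and 7.55 without it, and Laptm5 read 2.42 and 2.62 with hormone and 6.38 and 2.24 without it.

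The deleted genes were read first. Of the 2 Stat5a probe sets, the brighter read 2.43 and 2.38 in KO cells with hormone and 2.41 and 2.47 without it, against 11.45 to 12.39 on the 4 WT arrays. It also read 2.34 to 2.42 on the S5 arrays, where the other Stat5a probe set read 9.04 to 9.90, against 2.19 to 2.25 on the KO arrays and 2.23 to 2.38 on the WT arrays. The brighter Stat5b probe set read 1.98 and 1.93 in KO cells with hormone and 1.95 and 2.01 without it, against 8.98 to 9.39 in WT cells. Every Stat5 probe set was thus in the low mode on all 4 KO arrays.

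In cells without STAT5, the genes called higher after growth hormone included 5 chemokines (Cxcl1, Cxcl2, Cxcl5, Cxcl10 and Ccl2) and 4 genes of the NF-kB pathway (Bcl3, Tnfaip3, Relb and Nfkbia). At a Benjamini-Hochberg adjusted p of 0.05 in limma's test, 56 of 18194 genes were called, or 0.308% of those tested. Of these, 41 were higher with hormone (0.225%) and 15 lower (0.0824%), and 17 and 7 of them differed at least 2-fold in the values as deposited. In all 56 genes both arrays of a group lay above both arrays of the other, a pattern seen upward in 13.4% and downward in 12.6% of all genes. The calls rest on a spread shared by 6 groups: a fit of the 4 KO arrays alone called 0 genes, with 1407 at an unadjusted p below 0.05 and a lowest adjusted p of 0.055, and all 56 genes kept an unadjusted p below 0.05 there. Leaving out either untreated S5 array left 20 calls, leaving out the first KO array with hormone gave 140, and 13 of the 56 genes were called whichever array was left out. The balance of directions also rested on single arrays: without the first or second untreated KO array, 59 and 63 genes were called, of which 28 and 25 were higher and 31 and 38 lower.

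**Figure D1:**
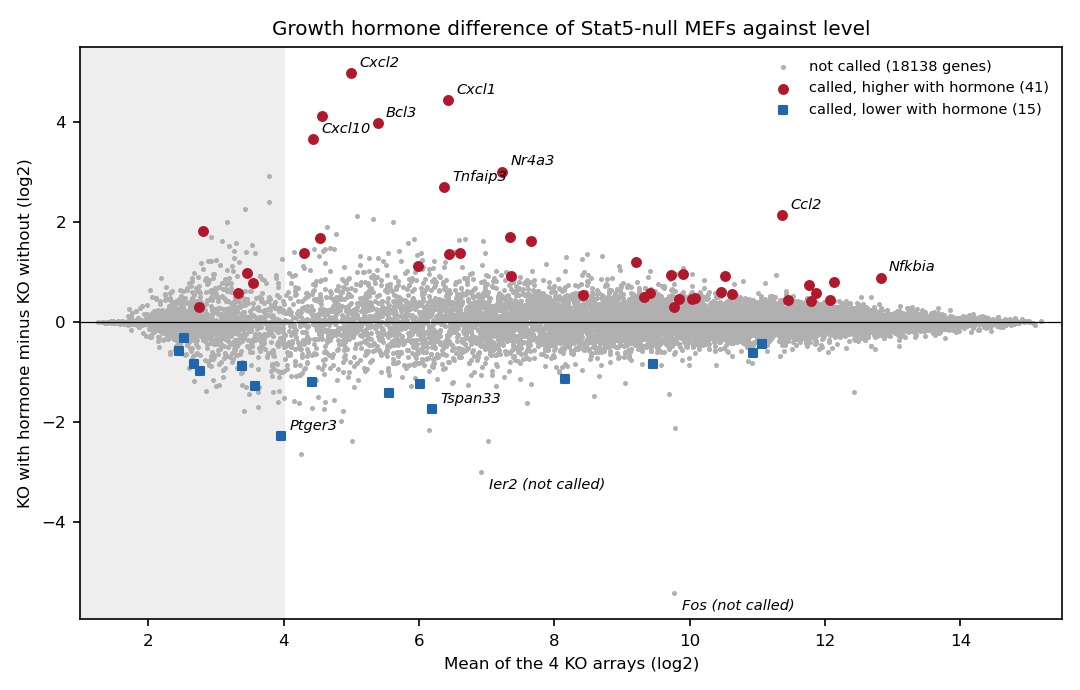
Difference between KO MEFs with and without growth hormone (log2, vertical) against the mean of the 4 KO arrays (log2, horizontal) for 18194 genes. Red circles are the 41 genes called higher, blue squares the 15 called lower, grey points the rest, and the shaded band is the low mode below 4. Cxcl2, Cxcl1 and Bcl3 lie at the top, and Fos and Ier2, at the bottom, were not called.

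Of the CXC chemokines, small secreted proteins that draw leukocytes, 4 of 15 measured members rose and 0 fell, beside 0.225% of all genes higher. The 15 members had a median difference of 0.10, beside -0.02 over all genes, and 8 of them lay below 4 on all KO arrays. Cxcl2, Cxcl1 and Cxcl5 encode ligands of the neutrophil receptor CXCR2. Cxcl2 read 7.82 and 7.16 in KO cells with hormone, against 2.40 and 2.63 without it. That is at least 11.2-fold higher (log2 difference 4.97 ± 0.42 SE, adjusted p = 0.00867 by limma), as both untreated arrays lay in the low mode and were set to 4 for the fold. Cxcl1 read 8.63 and 8.68 with hormone, against 5.04 and 3.39 without it, a 21.7-fold difference (4.44 ± 0.48 SE, adjusted p = 0.0202 by limma). The second of these untreated arrays lay below 4 and entered the fold as deposited. The other 2 Cxcl1 probe sets read 1.88 to 2.48 without hormone and differed by 6.57 and 6.48. The untreated arrays of Cxcl1 differed from each other by more than those of the other 3 CXC genes, and its call was lost without the second KO array with hormone or without either untreated S5 array. Cxcl5 read 6.57 and 6.66 with hormone, against 2.46 and 2.56 without it, at least 6.12-fold higher (4.11 ± 0.24 SE, adjusted p = 0.00178 by limma). Cxcl10, a ligand of the T cell receptor CXCR3 that interferons also induce, read 6.16 and 6.37 with hormone, against 2.81 and 2.42 without it. It was at least 4.80-fold higher, with the smallest adjusted p of the genes above the low mode (0.000159 by limma). The treated and untreated arrays did not overlap for any of the 4 genes, which held for all 56 called genes. With array weights, Cxcl1 and Cxcl2 lost their calls while Cxcl5 and Cxcl10 kept them. Cxcl12, the ligand of CXCR4, read 13.57 and 13.58 with hormone and 13.77 and 13.76 without it, and was not called (adjusted p = 0.874).

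Among 20 measured CC and other chemokines, 1 rose and 0 fell, with a median difference of 0.01. The riser was Ccl2, which draws monocytes through CCR2. It read 12.45 and 12.40 in KO cells with hormone, against 10.48 and 10.11 without it, 4.40-fold higher (2.14 ± 0.15 SE, adjusted p = 0.00416 by limma). Another 5 members reached only an unadjusted p below 0.05, all with higher values after hormone, which makes 6 of 20 with Ccl2, beside 5.98% of all genes. Of the 10963 genes at 4 or more on some KO array, 1050 were higher at that p. Ccl7, the neighbour of Ccl2 on chromosome 11 and also a monocyte chemokine, read 10.50 and 10.37 with hormone and 9.57 and 9.16 without it (adjusted p = 0.094). Cx3cl1, the membrane-bound ligand fractalkine, read 6.24 and 6.23 with hormone and 4.88 and 4.82 without it (adjusted p = 0.0509). Ccl11, the eosinophil chemokine eotaxin, read 4.66 and 5.82 with hormone and 2.31 and 2.34 without it (adjusted p = 0.123). For all 3 of these genes the difference missed the threshold. Their groups did not overlap, a pattern seen upward in 13.4% of all genes, and they were named by their small p.

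Cxcl1 and Cxcl2 are immediate protein-coding neighbours on chromosome 5, where Cxcl5 and Cxcl10 also lie. The 250 bases before the start sites of Cxcl1, Cxcl2, Cxcl10 and Nfkbia are shown to let the letters be read beside the values. These genes were chosen after their values were seen, and the sequences come from the RefSeq promoter table of GRCm38.p6. They are chr5:90890995-90891244 and chr5:90903649-90903898 on the plus strand and chr5:92348890-92349139 and chr12:55492648-55492897 on the minus strand. Capitals mark matches on either strand to a narrow form of the NF-kB motif (GGG, any 2 bases, TT, any base, CC), which was chosen after the promoters were seen.
Cxcl1: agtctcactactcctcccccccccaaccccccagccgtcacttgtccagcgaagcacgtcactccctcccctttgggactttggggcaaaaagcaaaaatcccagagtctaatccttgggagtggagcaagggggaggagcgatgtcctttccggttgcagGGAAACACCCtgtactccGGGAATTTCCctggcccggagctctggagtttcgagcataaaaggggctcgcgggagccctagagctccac
Cxcl2: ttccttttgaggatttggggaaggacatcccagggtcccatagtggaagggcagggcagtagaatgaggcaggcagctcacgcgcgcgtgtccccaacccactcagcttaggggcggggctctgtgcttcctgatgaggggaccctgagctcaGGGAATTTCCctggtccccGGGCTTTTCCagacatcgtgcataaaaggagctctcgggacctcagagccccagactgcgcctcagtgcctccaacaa
Cxcl10: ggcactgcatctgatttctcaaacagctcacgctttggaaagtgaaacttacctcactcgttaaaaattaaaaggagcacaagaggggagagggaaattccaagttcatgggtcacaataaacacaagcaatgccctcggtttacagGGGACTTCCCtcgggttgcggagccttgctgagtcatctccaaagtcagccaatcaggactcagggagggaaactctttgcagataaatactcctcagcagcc
Nfkbia: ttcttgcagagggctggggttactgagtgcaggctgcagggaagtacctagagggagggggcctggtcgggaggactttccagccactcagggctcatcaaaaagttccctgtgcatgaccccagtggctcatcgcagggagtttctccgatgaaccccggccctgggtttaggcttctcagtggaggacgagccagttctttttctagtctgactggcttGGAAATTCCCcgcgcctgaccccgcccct
The matches ended 79 and 61 bases before the start site in Cxcl1, 87 and 68 in Cxcl2, 93 in Cxcl10 and 19 in Nfkbia. The narrow motif had no match in Bcl3, Nr4a3, Micall2 or Hivep3, and the wide one described next had none in Nr4a3 or Hivep3. The table held 34 of the 41 genes called higher, 13 of the 15 called lower and 14368 of all genes tested. The narrow motif stood in 20.6% of promoters of genes called higher, in 7.69% of those called lower and in 5.44% of all. The wide NF-kB motif (GGG, any 5 bases, CC), which includes the narrow one, stood in 91.2%, 61.5% and 61.1% of the same promoters. Their mean GC content was 61.7%, 56.8% and 57.8%, and its part in these shares was not tested. The STAT motif TTCNNNGAA stood in 0% and 0% of promoters of called genes and in 7.43% of all, the AP-1 motif TGANTCA in 8.82%, 7.69% and 6.67%, and the interferon motif (GAAA, any 2 bases, GAAA) in 2.94%, 0% and 3.15%. All motifs were searched on both strands of these 250 bases, and a match is a description of letters, not of binding.

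Of 24 measured genes for NF-kB subunits, inhibitors and brakes, 4 rose and 0 fell. The list had a median difference of 0.15, beside -0.02 over all genes. At an unadjusted p below 0.05 there were 10 of the 24, all higher with hormone, beside 5.98% of all genes. Among the 10963 genes at 4 or more on some KO array, 1050 were higher at that p. Bcl3 encodes an atypical inhibitor family member that acts with NF-kB dimers in the nucleus. It read 7.36 and 7.40 in KO cells with hormone, against 3.71 and 3.10 without it, at least 10.4-fold higher (3.98 ± 0.41 SE, adjusted p = 0.020 by limma). Tnfaip3 encodes A20, an enzyme that edits ubiquitin chains and limits NF-kB signalling. It read 7.36 and 8.08 with hormone, against 5.12 and 4.94 without it, 6.47-fold higher (2.69 ± 0.30 SE, adjusted p = 0.0216 by limma). Relb, a subunit of the non-canonical NF-kB dimer, read 8.18 and 8.20 with hormone, against 6.66 and 6.35 without it, a 3.22-fold difference (1.69 ± 0.18 SE, adjusted p = 0.020 by limma). Nfkbia, the inhibitor that holds NF-kB in the cytoplasm, read 13.32 and 13.21 with hormone, against 12.35 and 12.41 without it. Its 1.85-fold difference (0.89 ± 0.06 SE, adjusted p = 0.00416 by limma) was called whichever array was left out. Its 4 other probe sets were higher too, by 0.74 to 1.88, so the size depends on the probe set. With array weights Nfkbia kept its call, while Bcl3, Tnfaip3 and Relb lost theirs. The calls of Bcl3 and Relb were lost without the second KO array of either group, and that of Tnfaip3 without 7 of the 12 arrays taken singly.

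Other members of the list were not called. Nfkbie, a further cytoplasmic inhibitor, read 8.93 and 9.39 with hormone and 7.75 and 7.85 without it (adjusted p = 0.070). Zc3h12a, which encodes an RNase that degrades inflammatory transcripts, read 4.36 and 4.24 with hormone and 2.67 and 2.85 without it (adjusted p = 0.0503). Nfkb2, the partner of Relb, read 9.59 and 9.66 with hormone and 9.06 and 8.60 without it (adjusted p = 0.147). In all 3 genes, named by their small p, the values with hormone lay above those without it, as in 13.4% of all genes. Among 31 measured inflammatory effectors of fibroblasts and 22 measured members of the list of inflammatory cytokines and growth factors, 0 were called. Fgf7, a growth factor that was called, is not on that list. The cytokine list had a median difference of -0.02. It had 4 members at an unadjusted p below 0.05 by limma (18.2%), 1 higher and 3 lower with hormone. That stands beside 9.89% of all genes and 15.6% of genes at 4 or more on some KO array. The effectors had 7 members at an unadjusted p below 0.05, all higher with hormone (22.6%). That stands beside 5.98% of all genes and 1050 of the 10963 genes at 4 or more on some KO array. Among the 7 were the adhesion molecule Icam1 (10.22 and 10.45 with hormone, 9.49 and 9.26 without it) and the transcription factor Irf1 (7.86 and 7.73 with hormone, 7.32 and 6.66 without it). Of 26 measured interferon response genes 0 were called, and 2 had an unadjusted p below 0.05 (7.69%, beside 9.89% of all genes).

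**Figure D2:**
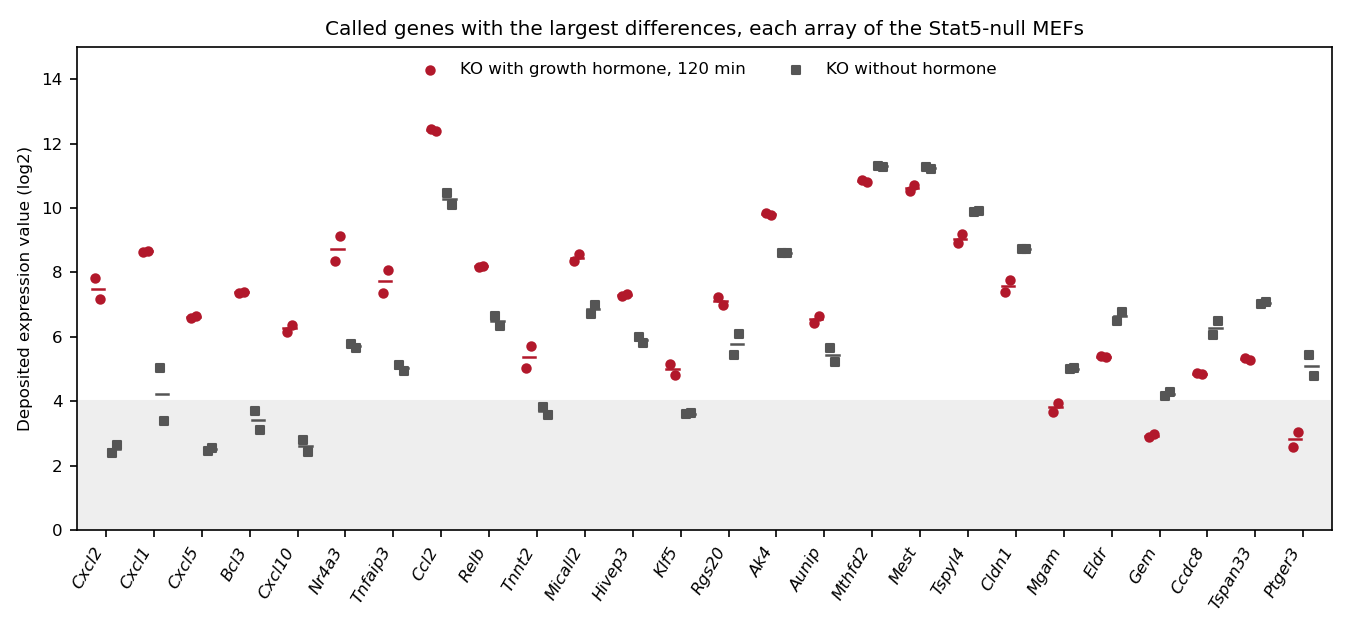
Deposited log2 values of each KO array for 26 called genes, with hormone (red circles, left) and without it (grey squares, right), and horizontal lines at group means. They are the 16 largest rises, ranked with low mode groups set to 4, and the 10 falls at 4 or more on some KO array. The shaded band is the low mode below 4. Cxcl2, Cxcl5, Bcl3, Cxcl10, Tnnt2 and Klf5 lay in it on both untreated arrays, and Ptger3, Mgam and Gem on both arrays with hormone.

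The remaining genes with large rises belong to several functions. Nr4a3, an orphan nuclear receptor of the immediate early class, read 8.34 and 9.13 in KO cells with hormone, against 5.79 and 5.67 without it (8.02-fold, 3.0 ± 0.40 SE, adjusted p = 0.0424 by limma). It held its call under 7 of 21 alternative settings. Micall2, which links the small GTPase RAB13 to actin, read 8.35 and 8.56 with hormone, against 6.71 and 6.99 without it (3.05-fold, adjusted p = 0.0202 by limma). Tnnt2, cardiac troponin T, read 5.03 and 5.71 with hormone, against 3.82 and 3.58 without it, at least 2.59-fold higher (adjusted p = 0.0389 by limma). All 11 muscle markers lay below 4 on all KO arrays. Micall2 and Tnnt2 were the 2 called among 25 measured smooth muscle and cytoskeletal genes, whose median difference was 0.02.

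Hivep3, a zinc finger protein that binds NF-kB-like sequences, read 7.27 and 7.32 with hormone, against 6.00 and 5.82 without it (2.60-fold, 1.38 ± 0.10 SE, adjusted p = 0.00658 by limma). Klf5, a Krüppel-like transcription factor, read 5.15 and 4.83 with hormone, against 3.60 and 3.62 without it, at least 1.99-fold higher (adjusted p = 0.020 by limma). Rgs20, a regulator of G protein signalling, read 7.233 and 7.002 with hormone, against 5.448 and 6.090 without it (2.55-fold, adjusted p = 0.0449 by limma). Of these 3 genes, Hivep3 alone was called whichever array was left out. Ak4, a mitochondrial adenylate kinase, read 9.84 and 9.77 with hormone, against 8.61 and 8.60 without it (2.30-fold, adjusted p = 0.00811 by limma). Aunip, which encodes a partner of the mitotic kinase Aurora A, read 6.43 and 6.66 with hormone, against 5.65 and 5.20 without it (2.17-fold, adjusted p = 0.0354 by limma). Hk2, hexokinase 2, was the 1 called of 21 measured hypoxia and glucose uptake genes. It read 10.37 and 10.40 with hormone, against 9.55 and 9.30 without it (1.94-fold, adjusted p = 0.0217 by limma). The list's median was -0.05, and 5 of its 7 members with an unadjusted p below 0.05 had lower values with hormone, Adm and Vegfa among them. Those 7 are 33.3% of the list, beside 9.89% of all genes and 15.6% of genes at 4 or more on some KO array.

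Genes of the receptor's own pathway gave smaller differences. Of 29 measured receptor and JAK-STAT components, 2 rose and 0 fell, beside 0.225% of all genes higher, and the median difference was 0.10. At an unadjusted p below 0.05 by limma there were 10 of the 29, all higher with hormone, beside 5.98% of all genes. Of the 10963 genes at 4 or more on some KO array, 1050 were higher at that p. Osmr, the receptor subunit of oncostatin M, read 12.11 and 12.15 in KO cells with hormone, against 11.36 and 11.41 without it (1.67-fold, 0.74 ± 0.08 SE, adjusted p = 0.020 by limma). Ptpn1, a tyrosine phosphatase that acts on JAK2, read 7.76 and 7.87 with hormone, against 6.85 and 6.94 without it (1.89-fold, 0.92 ± 0.11 SE, adjusted p = 0.0225 by limma). Both calls were lost without the first or second untreated KO array, the second KO array with hormone, or either untreated S5 array. Ghr, the growth hormone receptor, read 13.969 and 14.004 with hormone and 14.041 and 13.973 without it, so its arrays overlapped. Jak2 read 12.24 and 12.43 with hormone and 12.04 and 12.07 without it (adjusted p = 0.206).

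The genes by which STAT5 activity is usually read were not called. Of 26 measured STAT5 and growth hormone targets, 0 were called by limma and 4 had an unadjusted p below 0.05, 2 in each direction, with a median difference of -0.03. That is 15.4% of the list, beside 9.89% of all genes and 15.6% of the 10963 genes at 4 or more on some KO array. Cish read 4.32 and 4.69 in KO cells with hormone and 4.99 and 4.76 without it (-0.37 ± 0.16 SE, adjusted p = 0.515). Socs2 read 5.28 and 5.40 with hormone and 4.69 and 4.64 without it (0.67 ± 0.13 SE, adjusted p = 0.104). The Socs2 arrays did not overlap, and its unadjusted p was 0.00093. It passed the threshold when either S5 array with hormone was left out (adjusted p = 0.0354), within a range of 0.0354 to 0.745 over all settings tried. Bcl6, a repressor that STAT5 lowers in other cells, read 12.28 and 12.26 with hormone and 12.16 and 12.37 without it. Igf1, the main growth hormone target of the liver, read 9.81 and 10.52 with hormone and 10.73 and 10.19 without it (adjusted p = 0.938). Of 8 SOCS family members 0 were called by limma and 1, Socs2, had an unadjusted p below 0.05. Socs3 read 8.78 and 9.41 with hormone and 9.15 and 9.20 without it, and Socs1 lay below 4 on all 4 arrays.

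**Figure D3:**
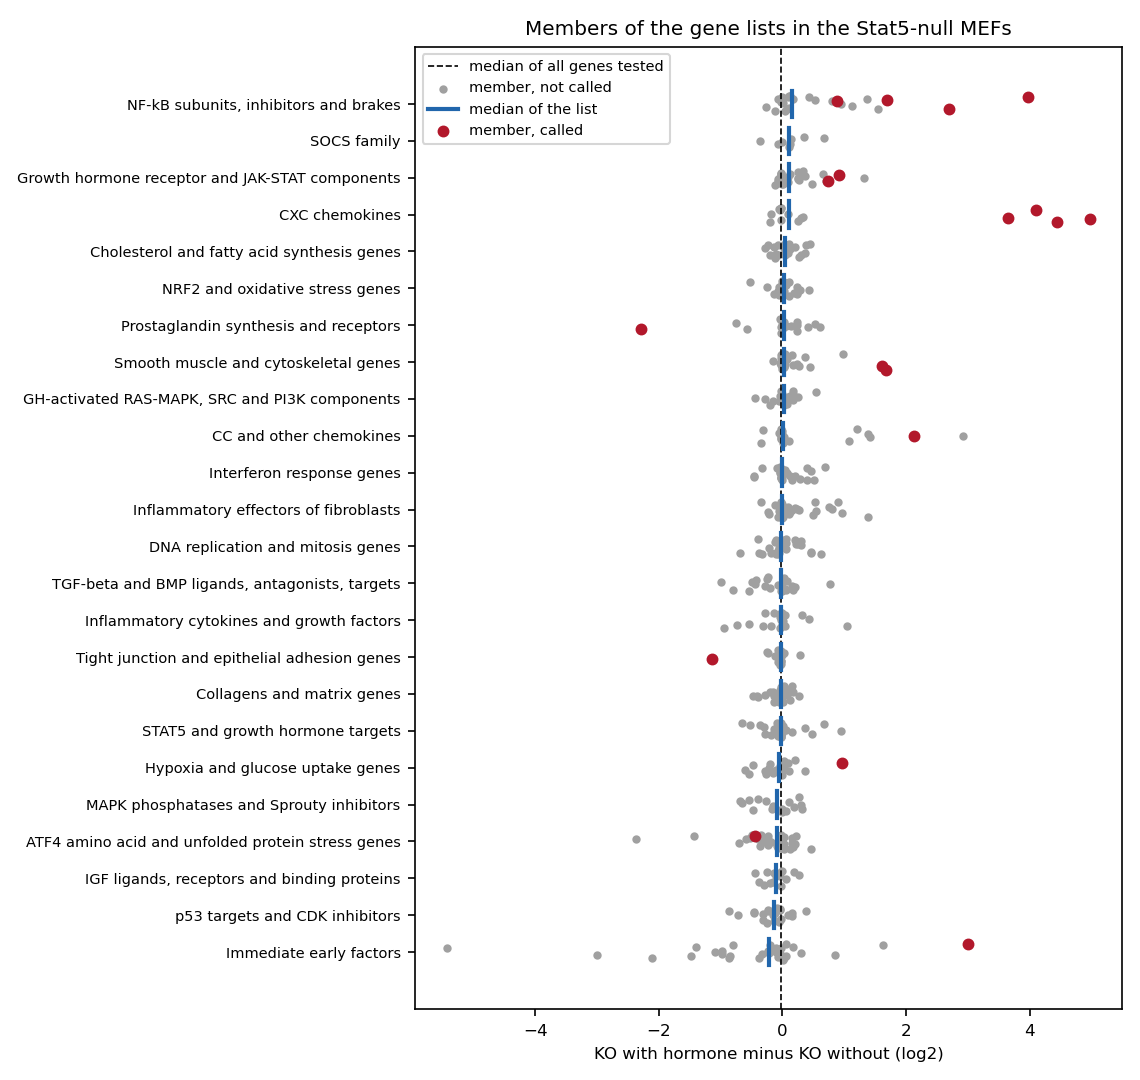
Difference between KO MEFs with and without hormone (log2) for each measured member of 24 gene lists, with list medians as blue bars and the median of all genes as a dashed line. Red points are called genes, and the vertical scatter within a list carries no value. The NF-kB list has the highest median (0.15) and the immediate early list the lowest (-0.21).

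Members of the immediate early list, genes that cells induce within minutes of a growth signal and then shut off, had mostly lower values 120 minutes after hormone. No earlier time was read. Of 32 measured members 1 rose (Nr4a3) and 0 fell, and the median difference was -0.21, beside -0.02 over all genes. At an unadjusted p below 0.05 there were 16 members, 13 lower and 3 higher, beside 3.91% and 5.98% of all genes. Of the 10963 genes at 4 or more on some KO array, 660 were lower and 1050 higher at that p. Fos, a subunit of AP-1, read 5.70 and 8.41 in KO cells with hormone and 12.74 and 12.21 without it, the widest difference of any gene tested (-5.42 ± 1.06 SE, adjusted p = 0.114). Its 2 arrays with hormone were far apart, yet both lay well below the untreated ones. Fos was lower with hormone in WT (-2.76) and S5 cells (-2.43) too and was not called there, and its untreated WT arrays read 12.83 and 10.11. Ier2 read 5.43 and 5.39 with hormone and 8.48 and 8.35 without it (-3.0 ± 0.70 SE, adjusted p = 0.174). Zfp36, whose product destabilises transcripts rich in AU elements, read 8.66 and 8.79 with hormone and 11.03 and 10.65 without it (-2.12 ± 0.46 SE, adjusted p = 0.148). For Ier2 and Zfp36 the KO duplicates lay close together, and the SE comes from the spread over all 6 groups. On the untreated WT arrays Ier2 read 8.58 and 5.99, and Zfp36 read 11.46 and 9.80. Egr1 read 11.09 and 12.36 with hormone and 13.25 and 12.98 without it (adjusted p = 0.318). Nr4a1 read 5.70 and 5.61 with hormone and 6.72 and 6.29 without it (adjusted p = 0.211). Maff, a small MAF protein, had higher values instead, 8.13 and 7.39 with hormone and 6.26 and 6.01 without it (adjusted p = 0.145).

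**Figure D4:**
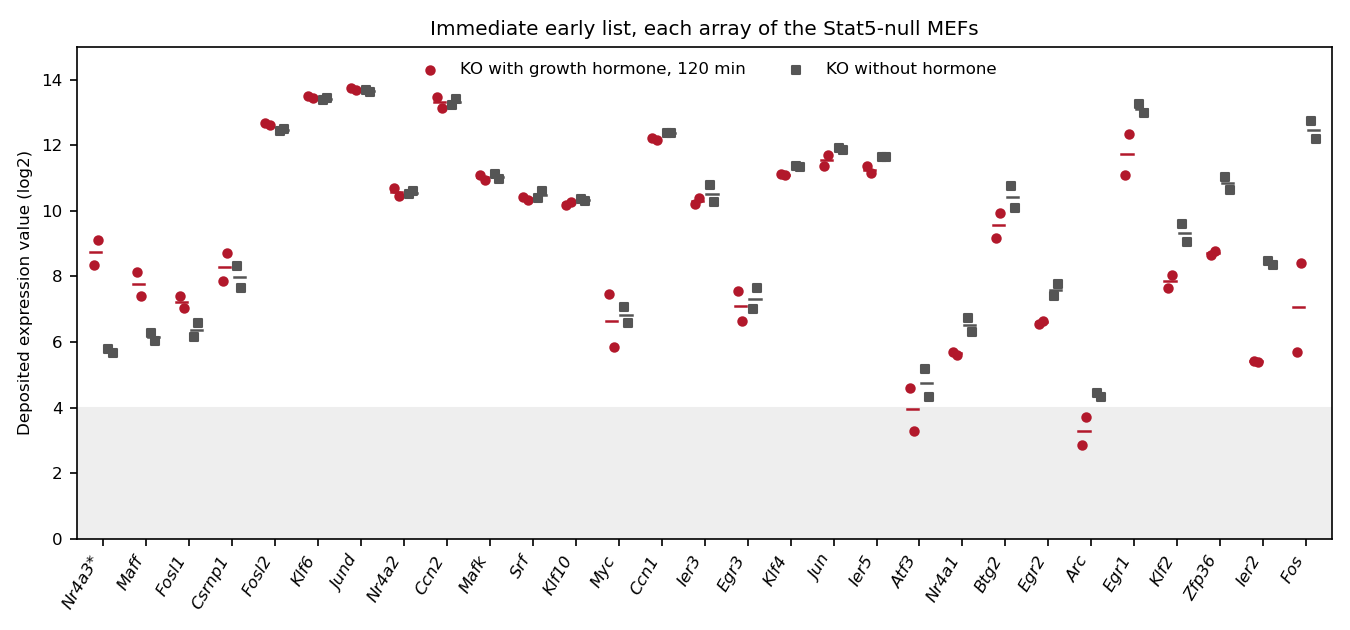
Deposited log2 values of each KO array for the 29 immediate early list members at 4 or more on some KO array, with hormone (red circles, left) and without it (grey squares, right), and lines at group means. Genes run from the highest to the lowest difference, and the asterisk marks the called gene. Fos, Ier2 and Zfp36 lie at the right with no overlap of their arrays.

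Genes with lower levels after hormone were fewer. Ptger3, which encodes the prostaglandin E2 receptor EP3, fell to 2.59 and 3.05 in KO cells with hormone, against 5.43 and 4.77 without it. That is at least 2.14-fold lower (-2.28 ± 0.21 SE, adjusted p = 0.0164 by limma), and it was called whichever array was left out. It was the 1 called of 18 measured genes of prostaglandin synthesis and reception, whose median difference was 0.02. Of these 18, 5 had an unadjusted p below 0.05 by limma, 4 higher and 1 lower with hormone. Those 5 are 27.8% of the list, beside 9.89% of all genes and 15.6% of genes at 4 or more on some KO array. Tspan33, a tetraspanin of the cell membrane, read 5.35 and 5.29 with hormone, against 7.03 and 7.09 without it, 3.33-fold lower (-1.74 ± 0.20 SE, adjusted p = 0.0217 by limma). Ccdc8, part of a complex with the growth-related cullin CUL7, read 4.87 and 4.83 with hormone, against 6.06 and 6.48 without it, 2.67-fold lower (adjusted p = 0.038 by limma). Eldr, a long non-coding RNA, read 5.41 and 5.36 with hormone, against 6.50 and 6.76 without it, 2.38-fold lower (adjusted p = 0.020 by limma). Each of the last 3 calls was lost when some single array was left out.

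Cldn1, the tight junction protein claudin 1, read 7.39 and 7.77 with hormone, against 8.73 and 8.72 without it, 2.21-fold lower (adjusted p = 0.038 by limma). It was the 1 called of 20 measured tight junction and epithelial adhesion genes, 14 of which lay below 4 on all KO arrays. Mgam, an intestinal disaccharide-cleaving enzyme, read 3.68 and 3.96 with hormone, against 4.99 and 5.03 without it (at least 2.02-fold lower, adjusted p = 0.0217 by limma). Gem, a small GTPase, read 2.88 and 2.99 with hormone, against 4.15 and 4.28 without it (at least 1.16-fold lower, adjusted p = 0.0349 by limma). Both lay in the low mode after hormone and just above it before. Tspyl4, a nucleosome assembly family member, was 1.78-fold lower (8.91 and 9.18 with hormone, 9.87 and 9.89 without it, adjusted p = 0.047 by limma). Mest, an imprinted hydrolase gene, was 1.54-fold lower (10.51 and 10.73 with hormone, 11.27 and 11.22 without it, adjusted p = 0.0482 by limma). Another 5 called genes with lower values and 3 with higher values, Apom among them (named after its values were seen) with the smallest adjusted p of all (7.55e-05), lay below 4 on all KO arrays and have no fold.

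Mthfd2, a mitochondrial enzyme of one-carbon metabolism, was the 1 called of 37 measured ATF4 and unfolded protein stress genes, with 1 lower and 0 higher. It read 10.88 and 10.81 with hormone, against 11.31 and 11.29 without it, 1.37-fold lower (-0.45 ± 0.05 SE, adjusted p = 0.020 by limma). The list's median was -0.08, and 13 members had an unadjusted p below 0.05, 11 of them lower with hormone, beside 3.91% of all genes. Of the 10963 genes at 4 or more on some KO array, 660 were lower at that p. Chac1, which degrades glutathione, read 8.74 and 9.21 with hormone and 10.48 and 10.34 without it (adjusted p = 0.0538). Trib3, a pseudokinase induced by stress, read 4.93 and 6.75 with hormone and 8.44 and 7.98 without it (adjusted p = 0.142). The amino acid transporter gene Slc7a5 read 9.15 and 9.12 with hormone and 9.81 and 9.64 without it (adjusted p = 0.0741). In all 3, named by their small p, the arrays with hormone lay below both untreated arrays, as in 12.6% of all genes.

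The same genes were then read in the cells with STAT5. The 3 responses come from separate arrays but share the variances of 1 fit. Of the 41 genes called higher in KO cells, 28 were also called higher with hormone in WT cells, where 3.06% of all genes were, and 27 in S5 cells, where 3.63% were. Their median difference was 0.92 in KO cells, against 0.50 in WT cells and 0.56 in S5 cells. Of the 15 genes called lower in KO cells, 5 were called lower in WT cells (2.94% of all genes) and 4 in S5 cells (4.25%), with medians of -0.98 in KO cells, -0.26 in WT cells and -0.03 in S5 cells. The genes and the KO medians were selected on the KO arrays, so a smaller median elsewhere is a description only.

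**Figure D5:**
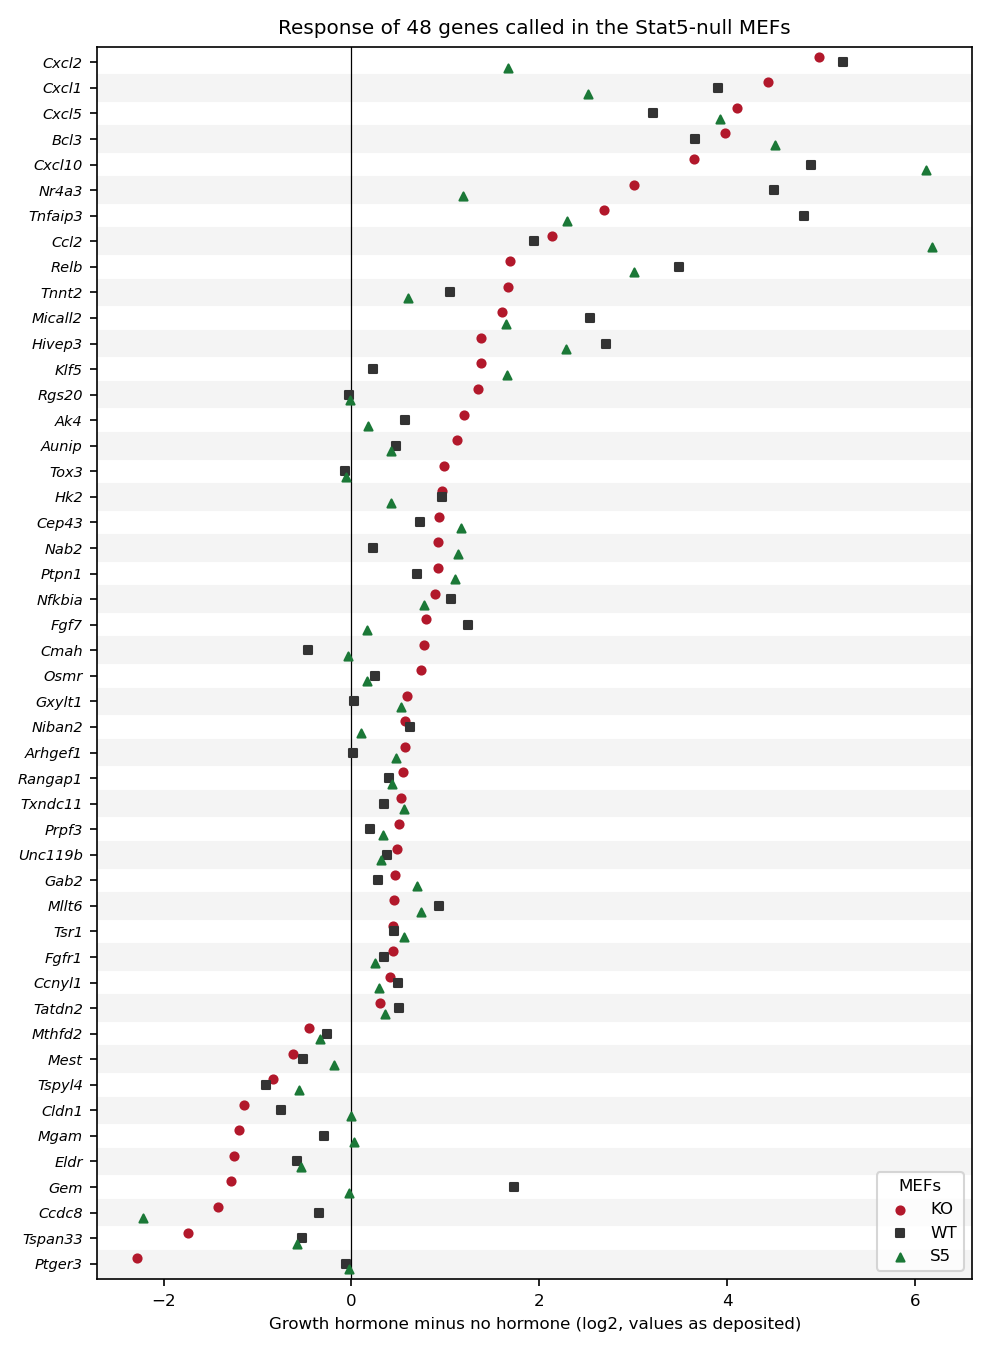
Difference with minus without growth hormone (log2) for the 48 called genes at 4 or more on some KO array, in KO (red circles), WT (black squares) and S5 MEFs (green triangles). Low mode values are shown as deposited. Most genes called higher in KO cells lie right of 0 in all 3, and Gem lies left of 0 in KO and right of it in WT cells. Ptger3 and Rgs20 lie near 0 in WT and S5 cells, where both were in the low mode on every array.

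The test of the difference between responses called 231 genes between KO and WT cells (1.27% of all) and 205 between KO and S5 cells (1.13%). Of the 56 genes called in KO cells, 16 differed from the WT response and 14 from the S5 response, and 7 and 6 of these lay below 4 on every array compared. Relb gained less in KO cells (1.69) than in WT cells (3.49), a difference of -1.80 ± 0.25 SE (adjusted p = 0.0198 by limma). Hivep3 likewise had 1.38 in KO cells, against 2.71 in WT cells and 2.28 in S5 cells (adjusted p = 0.00791 and 0.0398 by limma). Ccl2 differed from S5 cells, with 2.14 in KO cells against 6.18 in S5 cells (adjusted p = 0.000245 by limma), while the untreated level was 10.48 and 10.11 in KO cells and 6.36 and 6.27 in S5 cells. For Cxcl1, Cxcl2, Cxcl5, Bcl3, Tnfaip3 and Nfkbia neither difference between responses passed the threshold, which does not show that the responses were alike. The SEs were wide for some of them, as for Cxcl1 (0.54 ± 0.68 against WT cells and 1.92 ± 0.68 against S5 cells). Leaving out the second untreated WT array gave 355 genes that differed from the WT response, and leaving out either untreated S5 array gave 150.

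Marker levels differed between the cell populations beside every comparison with WT cells. The 16 macrophage and leukocyte markers averaged 9.08 to 10.71 on the WT arrays, against 3.73 to 4.11 on the KO arrays and 3.28 to 3.56 on the S5 arrays, and their part in the differences from WT was not tested. Fibroblast markers averaged 13.63 to 13.70 on the KO arrays and 12.28 to 12.67 on the S5 arrays. In bulk RNA, fewer cells of a type and less RNA per cell cannot be told apart. Within the KO arrays the macrophage markers averaged 3.95 and 4.11 with hormone and 4.01 and 3.73 without it. The gap between the untreated duplicates owes much to Laptm5 (6.38 and 2.24), so it is no yardstick for the change with hormone. Il1b, Tnf, Csf2 and Ccl20, which rose in WT cells, lay below 4 on all 4 KO arrays. The part of macrophage markers in the KO differences was not tested.

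Of the STAT5 targets reported whatever their values, Cish, Socs2 and Bcl6 differed in response between KO cells and both others, and Igf1 did not pass the threshold (adjusted p = 0.89 against WT and 0.392 against S5 cells). Cish had a difference of -0.37 in KO cells, against 3.14 in WT cells and 5.75 in S5 cells (adjusted p of the differences 0.000443 and 4.53e-05 by limma). Socs2 had 0.67 in KO cells, against 4.22 in WT cells and 4.51 in S5 cells (adjusted p = 0.000104 and 0.000162 by limma). Bcl6 had 0.00 in KO cells, against -1.88 in WT cells and -1.22 in S5 cells (adjusted p = 0.000965 and 0.011 by limma). For Socs3 the KO response differed from that of S5 cells (-0.08 against 2.53, adjusted p = 0.0377 by limma) and missed the threshold against WT cells (1.10, adjusted p = 0.387).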

How the data were processed

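RNA of 12 samples was read on Affymetrix arrays, and the authors deposited log2 expression values for 45101 probe sets. GCOS and RMA are listed in the submitters' processing notes without versions. Settings and the genome build are not given in the sources used here. The log2 scale was read from the values (0.99 to 15.95), of which 54.3% of probe sets averaged below 4.

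Of the probe sets, 64 controls, 932 with several genes and 9160 with none in the probe table were left out. The other 34945 covered 18194 genes. For the 9009 genes read by several, the probe set that was brightest on average over all arrays was used. A RefSeq gene table (GRCm38.p6) held 18032 of the genes. Some list members were not analysed here because no probe set named them alone.

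Means of 6 groups were fitted with limma 3.58.1 in R 4.3.3, with 6 residual and 1.2 prior degrees of freedom, and tables and plots were made with Python 3.11.15 and matplotlib 3.10.9. Tests were two-sided and adjusted by the Benjamini-Hochberg method over 18194 genes at 0.05. Differences between responses were contrasts of the same fit. An exact permutation test of 2 against 2 arrays cannot go below p = 0.333 and was not used. The number of arrays limits the precision of every value. A group with both arrays below 4 was set to 4 for a fold, which is then given as "at least", and no fold is given where both groups, or the higher one's mean, lay below 4. No value was changed for the p-values. The fit was tested on simulated data in which each gene had the same spread on all arrays, so that test does not cover a wider spread of the KO arrays. Since nothing in the labels says that cultures were separate beyond the design text's term duplicates, p-values measure the spread between these arrays.

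The comparison, the gene lists and the rules were chosen with earlier results of these data known. The text names the 16 largest rises and up to 12 largest falls among called genes, the called members and up to 5 more by smallest p of 24 lists, 8 genes in each direction for each difference between responses, and 13 genes reported whatever their values. The lists are described by counts and medians, with no test of a list. Alternatives were a fit of only the groups compared, other probe set summaries, normalization, filter and prior, array weights, a replicate block and each array left out. The replicate numbers of the titles did not pair the arrays: over 10947 genes the deviations of KO arrays with the same number correlated at -0.36.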

Additional observations from a re-analysis of the deposited data

Results flagged for a closer look

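The results here stand out because limma's test of the difference between 2 responses passed an adjusted p of 0.05. Values are KO response minus the other response, on the log2 scale as deposited.

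Among genes called in KO cells, the KO response was below that of WT cells for Cxcl10 (-1.25), Relb (-1.80), Hivep3 (-1.33), Gem (-3.01) and Ptger3 (-2.23). Of the 16 called genes that differed from the WT response, 10 lay below it and 6 above it. Of those 6, Gxylt1 alone read above 4 on every KO array (0.56, adjusted p = 0.0117 by limma), and it was chosen after its values were seen. Untreated Cxcl10 lay in the low mode in KO cells (2.81 and 2.42) and at 8.91 and 8.90 in WT cells. Gem read 2.88 and 2.99 in KO cells with hormone and 4.15 and 4.28 without it, while in WT cells it read 7.54 and 7.01 with hormone and 5.48 and 5.62 without it. Against S5 cells the KO response was lower for Cxcl10 (-2.47), Ccl2 (-4.05), Hivep3 (-0.90), Mgam (-1.23) and Ptger3 (-2.26), and higher for Ak4 (1.03). Ptger3 read 2.43 to 2.52 on every WT and S5 array, in the low mode where no fall could be seen. With levels below 4 set to 4, its difference was -1.10 against both. Mgam read 2.42 to 2.50 on every S5 array, also in the low mode, and its difference from S5 cells was -1.01 with such levels set to 4.

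Genes outside the KO calls were led, against WT cells, by inflammatory genes. The differences were -9.37 for Il1b, -8.46 for Saa3, -8.0 for Clec4e, -7.93 for Tnf, -7.68 for Ccl4, -7.54 for Csf2, -6.18 for Cd69 and -5.58 for Ccl20. All 8 lay below 4 on the 4 KO arrays, and the WT arrays carried macrophage and leukocyte markers at means of 9.08 to 10.71, whose part was not tested. Positive differences against WT cells were 3.29 for the polarity gene Pard6b, 2.87 for Ppp1r3c, 2.12 for Slc14a1, 2.11 for Gpm6a, 2.06 for Mtcl1, 2.01 for Wscd2, 1.88 for Bcl6 and 1.83 for Palmd. All 8 had lower values with hormone in WT cells, from -3.08 for Ppp1r3c to -0.92 for Mtcl1, and none was called in KO cells. Of these, Mtcl1 read 7.49 and 7.51 in KO cells with hormone and 6.50 and 6.21 without it. Slc14a1, Palmd, Wscd2 and Gpm6a lay below 4 on all KO arrays, in the low mode where no fall could be seen.

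Against S5 cells the differences were -6.11 for Cish, -5.20 for Ikzf4, -5.07 for Plxna2, -4.93 for Igfbp3, -4.59 for Slc45a3, -3.84 for Socs2 and -3.69 for Rsph3a. Positive ones were 3.81 for Gli2, 2.91 for Krtap1-5, 2.80 for Bcl11b, 2.61 for Dio3os, 2.47 for Sox9, 2.28 for Rasgrp1, 2.11 for Rasgrf2 and 2.06 for Lratd2. None of these 15 genes was called in KO cells. In S5 cells those with a negative difference had higher values with hormone, and those with a positive difference lower values. Krtap1-5, Rasgrf2, Ikzf4 and Slc45a3 lay below 4 on all 4 KO arrays, and with such levels set to 4 their differences were 2.25, 2.14, -4.10 and -4.33. Igfbp3, which binds insulin-like growth factors, read 10.86 and 10.74 in KO cells with hormone and 11.13 and 11.35 without it, against 9.16 and 9.23 in S5 cells with hormone and 4.80 and 4.61 without it.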

How the results depend on the processing

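The difference between KO cells with and without hormone kept its sign for the called genes under every setting that tested them (44 of the 56 had a mean of 4 or more, and all 56 were in the other settings for single genes). In all 56 both arrays of a group lay above both of the other, so most settings could not change the sign. Only the mean of probe sets, quantile normalization and centring on the array median could. The count of 56 was 0 in the fit of KO arrays alone (1407 at an unadjusted p below 0.05), 10 with array weights (each KO array had a weight of 0.52 or 0.60, against 0.98 to 2.15 for the others), and 20 to 140 with an array left out. It lay between 53 and 84 under the other settings except the replicate block. With the replicate number as a block, 32 genes were called and 28 of the 56 kept, and the pairing is not borne out by the arrays. A crossed pairing of the KO arrays, chosen after the data were seen, called 104 and kept 51. The 231 differences from the WT response were 116 in a fit of the 8 KO and WT arrays, 125 with array weights, 129 among genes with a mean of 4 or more, and 150 to 355 with an array left out. The 205 differences from the S5 response were 114 in a fit of the 8 KO and S5 arrays, 358 when every probe set was tested, and 155 to 263 with an array left out. With an array left out, the CXC list had 3 to 4 called members and the NF-kB list 1 to 5. With array weights 2 CXC and 1 NF-kB list members were called, and in the fit of KO arrays alone 0 of either. The median of the NF-kB list ranged from 0.08 to 0.34 and that of the immediate early list from -0.24 to -0.14 over all settings. Apart from the fits with fewer arrays or genes, the cause of these shifts was not tested. Where an array was left out, the lone array of its group was assumed to vary like the other groups. Levels below 4 limit what can be seen for 7231 genes on the KO arrays.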

Other observations

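Among the smaller calls in KO cells, 5 genes are given here that were chosen after their values were seen. Fgf7, keratinocyte growth factor, read 12.59 and 12.47 with hormone, against 11.83 and 11.65 without it (1.73-fold, adjusted p = 0.0322 by limma). Nab2, a corepressor of EGR factors, read 11.05 and 10.92 with hormone, against 9.99 and 10.14 without it (1.89-fold, adjusted p = 0.032 by limma). Gab2, a docking protein of receptor signalling, was 1.38-fold higher (adjusted p = 0.020 by limma), and Gxylt1, a xylosyltransferase of Notch modification, 1.51-fold higher (adjusted p = 0.00811 by limma). Fgfr1 was 1.36-fold higher on its brightest probe set (12.33 and 12.26 with hormone, 11.82 and 11.89 without it), while another of its probe sets differed by -0.02, and its call held under 5 of 21 settings. Of 18 other probe sets of called genes at 4 or more on a KO array, 17 had the sign of the one used.

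Further gene groups gave no call in KO cells by limma. Their counts at an unadjusted p below 0.05 stand beside 9.89% of all genes and 15.6% of genes at 4 or more on some KO array. Of 16 MAPK phosphatases and Sprouty inhibitors, 3 (18.8%) had an unadjusted p below 0.05, all lower with hormone, such as Spry2 (11.28 and 11.39 with hormone, 11.72 and 11.74 without it, adjusted p = 0.121). Of 22 measured RAS-MAPK, SRC and PI3K components 3 did (13.6%), of 23 p53 targets and CDK inhibitors 4 (17.4%), and of 24 measured TGF-beta and BMP genes 4 (16.7%), all lower, with Bmp4 first (9.55 and 9.44 with hormone, 10.04 and 9.93 without it, adjusted p = 0.0704). Of 23 measured NRF2 genes 6 did (26.1%), of 15 IGF system genes 3 (20%), of 29 replication and mitosis genes 2 (6.90%) and of 29 collagens and matrix genes 0. Of 24 measured cholesterol and fatty acid synthesis genes 7 did (29.2%), 5 of them higher, Fasn first (11.60 and 11.60 with hormone, 11.27 and 11.06 without it, adjusted p = 0.198).

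Many wide differences were not called. In KO cells 180 genes differed by 1 or more on the log2 scale, of which 156 were not called, and in 142 of these the treated and untreated arrays did not overlap. Over all genes that pattern was seen upward in 13.4% and downward in 12.6%. Genes picked for a wide difference of means show it more readily, so the 142 add no support. Cxcr4, the receptor of CXCL12, read 2.60 and 3.26 with hormone and 6.44 and 4.71 without it (adjusted p = 0.206). Casp4, an inflammatory caspase, read 5.89 and 6.82 with hormone and 4.21 and 4.39 without it (adjusted p = 0.0532). Both were chosen after their values were seen.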
